A study of Mus musculus with 12 samples.

Results

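Loss of RalA alone was examined by setting 4 libraries labelled RalA cKO against 4 control libraries, which were 8 of the 12 libraries of the series. Members were taken by sample title, and all 4 libraries titled for the combined RalAB deletion stayed out of the contrast. Control mice carried CnpCre and Rosa26-StopFlox-TdTomato, so that cells with a history of Cre expressed the red reporter tdTomato. RalA cKO mice carried the same 2 transgenes and in addition RalAflox/flox, so CnpCre and the reporter were shared by both groups. Spinal cord was taken at postnatal day 10, red cells with large forward scatter were sorted, and RNA was sequenced from individual mice per the labels. CnpCre is driven by Cnp, a gene of oligodendrocytes and Schwann cells, so the sorted cells are a lineage and not 1 cell type. Strain, sex, littermate status and the exons that the floxed allele removes are not given in the sources used here.

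RalA is a small GTPase of the Ras family that switches between a GDP-bound and a GTP-bound state. In its GTP-bound state it binds subunits of the exocyst, the complex that tethers secretory vesicles to the plasma membrane, and RalB is its close paralogue. Oligodendrocytes add large amounts of membrane lipid and protein to the myelin sheath during the postnatal period, and the myelin sheath is rich in cholesterol.

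Depth was 10.9 M to 15.4 M estimated counts per library, and levels are given below as CPM (counts per M counts of a library, scaled by TMM; M stands for mega) for n = 4 mice per group. The sorted lineage was checked on 30 genes listed for myelin proteins, which held 12.4% to 14.3% of counts in control and 12.7% to 13.8% in RalA cKO. On the first principal component (35.3% of the variance) RalA cKO libraries lay at -38.1 to -8.51 and control libraries at 10.2 to 44.4. Sex-linked reads were unevenly spread over the groups. Xist is made in female cells, and Y-linked genes are expressed in male cells. Summed Y-linked reads were 41.0, 14.1, 0.769 and 0.275 CPM in control mice 1 to 4 and 52.6, 8.12, 109 and 59.3 in RalA cKO mice 1 to 4. Xist was at 1.77, 124, 173 and 68.9 CPM in control and at 0.446, 215, 0 and 0.195 in RalA cKO. Thus 3 of 4 RalA cKO libraries and 1 of 4 control libraries had Y-linked reads without Xist. Control 2 and RalA cKO 2 held both kinds of reads, which sits against their labels as individual mice. Sex was therefore close to confounded with genotype. The total number of calls, and that of some lists, is also given with Y-linked expression as a covariate. The total is given without these libraries as well.

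Summed over its transcripts, the targeted gene was only modestly lower in counts, without passing. A floxed allele can leave a shortened mRNA whose remaining exons still count toward Rala. Since the removed exons are not given, these sums cannot show how far the floxed exons were lost. Rala (ENSMUSG00000008859, chr13:17880571-17944239, minus strand, GRCm38) was at 35.8, 59.8, 47.6 and 56.7 CPM in control mice 1 to 4 and at 33.3, 42.6, 43.1 and 42.1 CPM in RalA cKO mice 1 to 4. The groups overlapped, because control 1 lay among the RalA cKO libraries. Its log2 fold change was -0.31 ± 0.16 (SE, adjusted p = 0.257, edgeR quasi-likelihood F test with Benjamini-Hochberg adjustment over all tested genes). In the 4 libraries with Y-linked reads and without Xist, where control 1 with the lowest Rala of its group is the single control, the value was 0.14 (adjusted p = 0.929). On a per-length scale, Rala was at 37.2 ± 3.65 TPM (SD) in control and 21.8 ± 2.98 TPM in RalA cKO, and the fit with transcript length offsets gave -0.58 (adjusted p = 0.0465). Counts of a short transcript weigh more on this scale. The short Rala transcript described below (659 bases against 2688) was at 0 in RalA cKO, and its part in the per-length difference was not tested. Ralb, the paralogue that was not targeted in these mice, differed by -0.32 ± 0.17 (adjusted p = 0.271).

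The 2 annotated Rala transcripts that passed the count filter differ in their first exon and in their end. Rala-201 (ENSMUST00000009003, 2688 bases) begins with the exon at chr13:17944017-17944239, and Rala-202 (ENSMUST00000223147, 659 bases) begins with the exon at chr13:17943739-17943949. Both continue with the exon at chr13:17896953-17897102. Rala-202 has a shorter exon 4 and lacks exon 5, of 1931 bases. The 30 bases across the first junction of each transcript are shown because they tell the transcripts apart, with the 15 bases from the first exon in capitals, 5′ to 3′ on the minus strand, from the GENCODE vM21 transcripts.
Rala-201: CGGCTCGCGGTGCAGatttttcttaatcct
Rala-202: CAAGCCACTCTGCCGatttttcttaatcct

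Rala-202 separated the groups and Rala-201 did not. The estimated counts of Rala-202 were 76, 17.6, 36.8 and 10.75 in control mice 1 to 4, which was 1.74% to 14.0% of all Rala counts. In all 4 RalA cKO libraries it was at 0. Rala-202 was 1 of 27 transcripts that rounded to 0 in every RalA cKO library with at least 10 counts in every control library. Against the floor that 3 counts per library set, the level of Rala-202 was lower by at least 10.2-fold in RalA cKO. Among 27071 tested transcripts this difference did not pass (adjusted p = 0.170, edgeR). Rala-201 had estimated counts of 466, 730, 715 and 608 in control and 370, 479, 489 and 588 in RalA cKO, with overlap between the groups and a log2 fold change of -0.26 ± 0.20 (adjusted p = 0.759). Of the 31-base words of Rala-202, 66.6% also occur in other transcripts of Rala and 210 occur in Rala-202 alone.

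**Figure D1:**
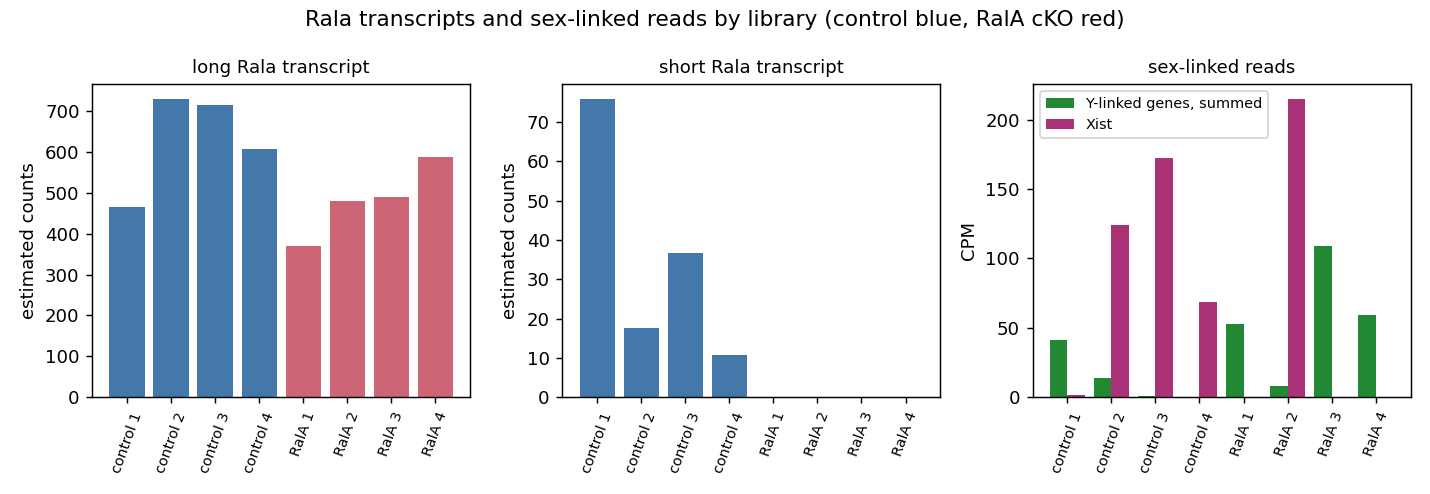
Estimated counts of the long (left) and short (middle) Rala transcript and sex-linked reads CPM (right) in each of the 8 libraries, control in blue and RalA cKO in red for the transcripts. The short transcript is at 10.75 to 76 in control and at 0 in RalA cKO, the long one overlaps, and control 2 and RalA cKO 2 hold both Y-linked and Xist reads.

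Across the transcriptome, loss of RalA went with 283 called genes of 12924 tested (2.19%), of which 169 were higher (1.31%) and 114 lower (0.882%) at an adjusted p under 0.05. Among the calls, 47 were at least 2-fold higher and 36 at least 2-fold lower, and 267 were protein-coding. Group ranges were separate for 1510 tested genes (11.7%) and for 277 of the 283 calls. A library total in place of TMM scaling turned the split of calls from 59.7% higher to 40.0% higher of 270 calls and moved the median of all genes to -0.14 from -0.02. Directions below are therefore relative to TMM scaling.

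The number of called genes varied with the libraries and terms in the fit. Leaving out 1 library gave 1053 calls without control 1, 487 without RalA cKO 1 and 365 without RalA cKO 3. The other omissions gave fewer, with 139 without control 4, 108 without control 3, 108 without RalA cKO 2, 79 without RalA cKO 4 and 58 without control 2. Of the 283 genes, 50 were called in all 8 of these fits (32 higher and 18 lower), and 185 were called in 4 or fewer. With Y-linked expression as a covariate 13 genes were called, all among the 283. They were the 12 core genes given below and 1600014C10Rik, so every other call named below was lost with the covariate. Without the 2 libraries with both kinds of sex-linked reads there were 29 calls, and in the 4 libraries with Y-linked reads and without Xist (1 control, 3 RalA cKO) there were 5. These fits hold fewer libraries or 1 more term, and the one with a single control assumes that it varies like the other group. The part of sex in the calls was not tested beyond them.

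**Figure D2:**
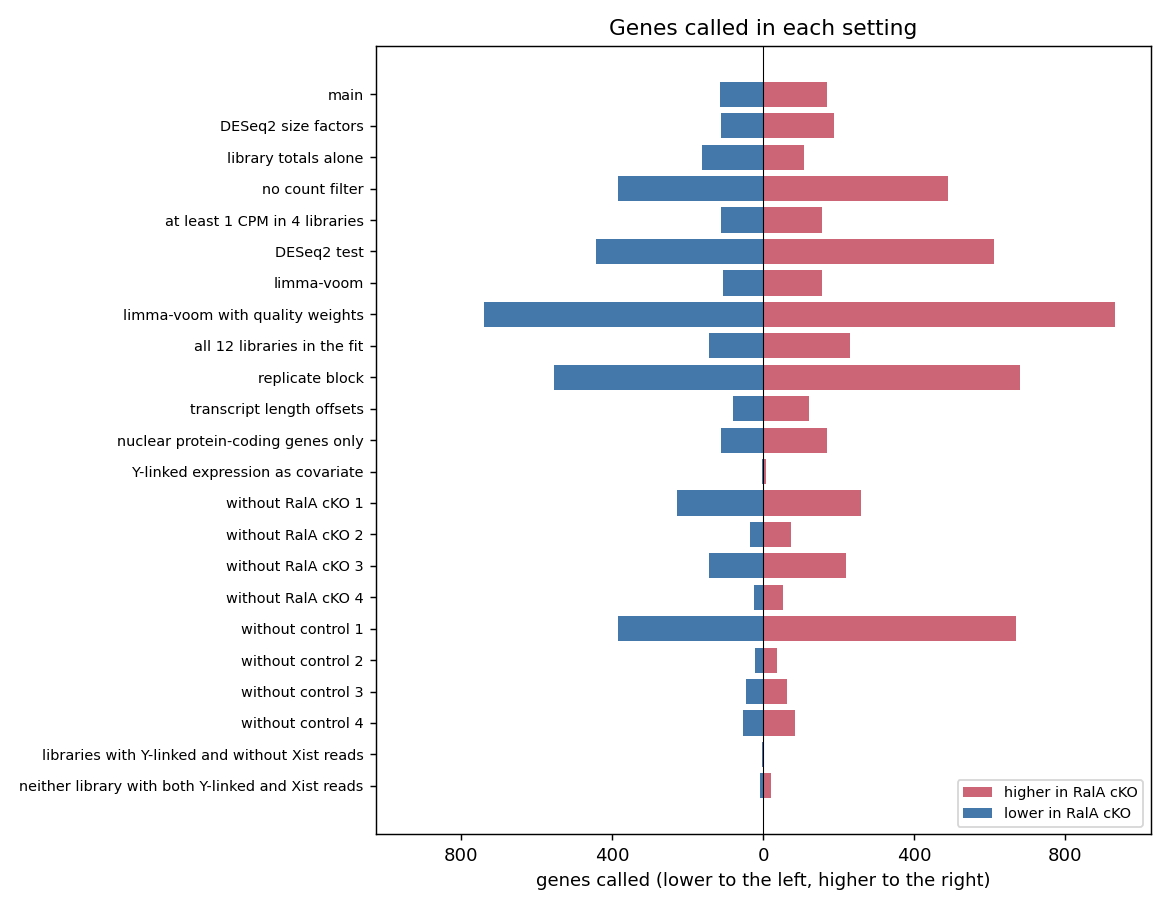
Number of genes called higher (red, to the right) and lower (blue, to the left) in RalA cKO in the fit of 8 libraries and in each alternative. The 283 calls of the fit of 8 libraries range from 5 to 1671 over the alternatives.

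A core of 12 genes was called in each of the 20 alternative fits listed for the processing that tests the gene, the covariate and all leave-one-out fits included (AI506816, which is not protein-coding, is absent from the fit on nuclear protein-coding genes), with 4 lower and 8 higher in RalA cKO. The fits on libraries chosen by sex-linked reads are not among these 20. Most core genes lost their call in the one with a single control. Plekhf1 and Pop4 had the smallest p-values in the main fit. Plekhf1 (chr7:38216972-38228016), which encodes a PH and FYVE domain protein of endosomes and lysosomes, was at 27.6, 20.1, 20.05 and 21.99 CPM in control and at 2.97, 2.58, 2.12 and 2.58 CPM in RalA cKO. Pop4 (chr7:38261996-38271423), a subunit of RNase P and RNase MRP, was at 87.2, 106, 90.1 and 100.7 CPM in control and at 20.1, 25.98, 21.2 and 26.7 CPM in RalA cKO. No RalA cKO library came near the lowest control library for either gene. Plekhf1 fell by 3.13 ± 0.19 and Pop4 by 2.03 ± 0.13 on the log2 scale (both adjusted p = 1.93e-06).

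Nid1 and AI506816 were the other lower genes of this core. Nid1 (chr13:13437551-13512269), the basement membrane glycoprotein nidogen-1, was at 63.1, 80.2, 65.3 and 85.5 CPM in control and at 17.9, 17.6, 10.1 and 11.2 CPM in RalA cKO. It fell by 2.37 ± 0.19 (adjusted p = 2.52e-05). AI506816 (chr5:23698296-23712667) was at 188 to 222 CPM in control and 96.3 to 112 CPM in RalA cKO, and fell by 0.99 ± 0.10 (adjusted p = 0.000266). Among 31-base words of its main transcript, 22.3% also occur in other genes.

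Hcn2, Sema7a and Gng11 rose from levels that were clearly measured in control. Hcn2 (chr10:79716634-79736108), a hyperpolarization-activated cation channel, was at 69.5, 52.5, 64.3 and 72.0 CPM in control and at 173, 175, 164 and 192 CPM in RalA cKO (1.45 ± 0.12, adjusted p = 2.52e-05). Sema7a (chr9:57940112-57962865), a GPI-anchored semaphorin, was at 69.0, 48.9, 60.5 and 71.2 CPM in control and at 134, 130, 125 and 137 CPM in RalA cKO (1.08 ± 0.12, adjusted p = 0.000596). Gng11 (chr6:4003904-4008445), a G protein gamma subunit, was at 17.0 to 26.3 CPM in control and 35.8 to 45.1 CPM in RalA cKO (1.00 ± 0.15, adjusted p = 0.00568).

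The remaining 5 core genes were close to absent in control. Acaa1b (chr9:119148023-119157093), a peroxisomal thiolase of fatty acid oxidation, was at 0.066, 0.080, 0.379 and 0.367 CPM in control and at 13.7, 14.8, 6.17 and 7.94 CPM in RalA cKO (5.53 ± 0.47, adjusted p = 4.89e-05). Abhd1 (chr5:30950066-30955091), of the alpha/beta hydrolase family, was at 0.126 to 1.12 CPM in control and 9.61 to 18.7 CPM in RalA cKO (4.37 ± 0.41, adjusted p = 0.00011). Klhl30 (chr1:91351016-91362416), a Kelch-like protein, was at 0.320 to 1.19 CPM in control and 6.58 to 18.2 CPM in RalA cKO (3.96 ± 0.42, adjusted p = 0.000436). Each library of RalA cKO lay several-fold above every control library for these 3 genes.

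Serpinb1a (chr13:32842092-32851185), an inhibitor of serine proteases that is also used as a marker of mature spinal cord oligodendrocytes, rose from 0.660 to 1.92 CPM in control to 5.96 to 9.66 CPM in RalA cKO (2.54 ± 0.32, adjusted p = 0.0018). Vmn1r43 (chr6:89858934-89876413), annotated as a vomeronasal receptor, had 3 counts in all control libraries together, all of them in control 1, and 174 in RalA cKO. The ratio of summed counts was 66.2 with an exact 95% counting interval of 22.3 to 324, which covers counting error only. Its CPM in RalA cKO was 3.33, 3.65, 3.35 and 4.15, and its adjusted p was 0.000436.

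**Figure D3:**
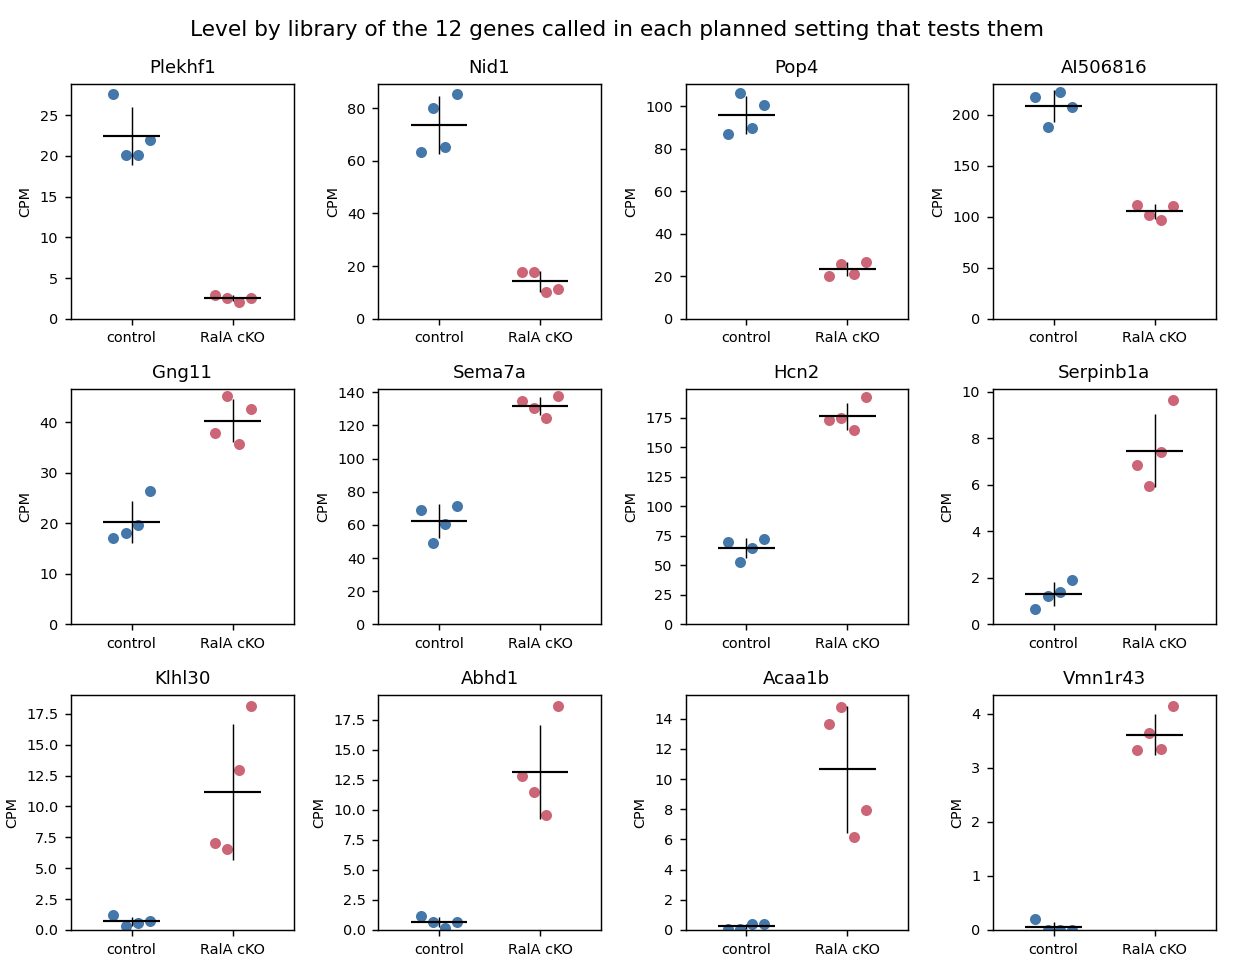
Level in CPM of the 12 core genes, 1 point per mouse, with the group mean (horizontal line) and SD (vertical line). In none of the 12 panels do control (blue) and RalA cKO (red) overlap.

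Further large changes held in all 8 leave-one-out fits. Cd44, a hyaluronan receptor, was at 1.45 to 2.48 CPM in control and 4.37 to 12.5 CPM in RalA cKO (2.07 ± 0.33, adjusted p = 0.00703). Adamtsl4, a secreted protein of the ADAMTS-like family, rose by 2.18 ± 0.29 (adjusted p = 0.00305) and Tmod1, an actin-capping tropomodulin, by 1.33 ± 0.19 (adjusted p = 0.00553). Pde8a, a phosphodiesterase that hydrolyses cyclic AMP, rose by 1.41 ± 0.20 (adjusted p = 0.00335) and Inpp5j, an inositol phosphatase, by 1.21 ± 0.19 (adjusted p = 0.00703). Bmf, a BH3-only protein that promotes apoptosis, was at 60.1 to 80.7 CPM in control and 112 to 170 CPM in RalA cKO (1.01 ± 0.14, adjusted p = 0.00331). These 6 genes lost their call with the Y-linked covariate.

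Lower genes of the same standing included Anxa5, Ptpn14, Spock2 and Clgn. Anxa5, annexin A5, which binds phosphatidylserine, was at 115, 130, 107 and 162 CPM in control and at 64.2, 62.1, 39.2 and 54.5 CPM in RalA cKO (-1.22 ± 0.16, adjusted p = 0.00327). Ptpn14, a non-receptor tyrosine phosphatase, was at 12.8 to 20.3 CPM in control and 4.58 to 6.85 CPM in RalA cKO (-1.45 ± 0.21, adjusted p = 0.00503). Spock2, a secreted proteoglycan, was at 96.9 to 141 CPM in control and 64.9 to 78.9 CPM in RalA cKO (-0.75 ± 0.12, adjusted p = 0.00959). Clgn, a chaperone of the endoplasmic reticulum, fell by 0.89 ± 0.14 (adjusted p = 0.00694).

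**Figure D4:**
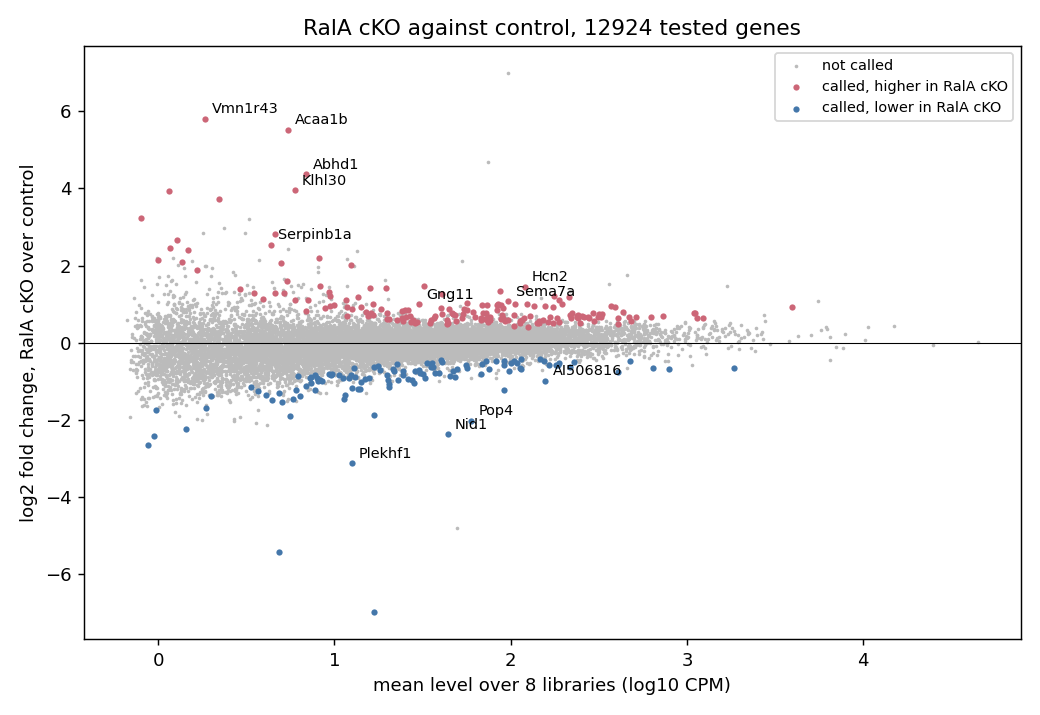
Log2 fold change of RalA cKO over control against the mean level (log10 CPM) for the 12924 tested genes, with calls in red (higher) and blue (lower). The 12 core genes are named. Values beyond 7 on the log2 scale are drawn at 7, which moves Eno1b (8.52, not called) and Gm10184 (-11.74).

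Myelin genes were little changed in bulk, and a few rose. Of 29 tested genes for myelin proteins 3 were higher and none lower, with a median of 0.23 against -0.02 for all genes tested. Of all 12924 tested genes 1.31% were called higher and 0.882% lower, which is the background for the counts of calls in this and each later list. Mbp, the main myelin basic protein gene, differed by 0.02 ± 0.14 (adjusted p = 0.96). Cd82, a tetraspanin, was at 108, 123, 84.2 and 111 CPM in control and at 242, 233, 181 and 325 CPM in RalA cKO (1.202 ± 0.17, adjusted p = 0.00335). Aspa, which cleaves N-acetylaspartate to give acetate for lipid synthesis, was at 45.6 to 75.9 CPM in control and 98.7 to 117 CPM in RalA cKO (0.84 ± 0.15, adjusted p = 0.0125). Opalin, a glycoprotein found in myelin of the central nervous system, was at 155 to 219 CPM in control and 238 to 359 CPM in RalA cKO (0.72 ± 0.14, adjusted p = 0.0223). Its call was lost without RalA cKO 2 or 4 or control 2 or 3, with 0.62 to 0.73 and adjusted p = 0.0595 to 0.0908.

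Among genes of late mature oligodendrocytes the calls were mostly higher. Of 29 tested genes 7 were higher and 1, Anxa5, was lower, with a median of 0.32, 19 above 0 and 10 below. The summed share of the list overlapped between groups, at 1.69% to 2.18% of counts in control and 1.96% to 2.22% in RalA cKO. Beside Hcn2 and Serpinb1a the risers were Pex5l, Ndrg1, Sept4, Klk6 and Cryab. Pex5l, which encodes a subunit that regulates HCN channels (TRIP8b), was at 86.4 to 105 CPM in control and 135 to 217 CPM in RalA cKO (0.94 ± 0.14, adjusted p = 0.00553). Ndrg1, a gene needed for peripheral myelin maintenance, was at 200 to 297 CPM in control and 436 to 612 CPM in RalA cKO (0.95 ± 0.14, adjusted p = 0.00568). In 5 of the 8 list calls all leave-one-out fits passed, and leaving out 1 library gave 5 to 9 higher calls. With the Y-linked covariate 2 of the genes were called, and the median was 0.36. Ptgds, the prostaglandin D synthase of this list, was at 3.56, 5.68, 5.63 and 7.61 CPM in control and at 31.7, 40.8, 221 and 276 CPM in RalA cKO without passing (4.68 ± 0.92, adjusted p = 0.062); it was singled out after its values were seen.

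Genes of earlier stages of the lineage had medians below 0. Of 27 tested genes of newly formed oligodendrocytes 3 were lower and none higher, namely Bmp4, Casr and Cyfip2, with a median of -0.15. Bmp4, a secreted ligand of the TGF-beta family, was at 76.7, 89.4, 117 and 85.0 CPM in control and at 69.4, 55.1, 54.6 and 51.9 CPM in RalA cKO (-0.67 ± 0.14, adjusted p = 0.0282). Each of the 3 calls was lost without RalA cKO 2, RalA cKO 4, control 2 and control 4 and 1 or 2 further libraries (adjusted p up to 0.128). None of 30 tested precursor genes was called, with a median of -0.44 and 28 of 30 below 0. Pdgfra, the receptor that defines precursors, was at 78.3 to 150 CPM in control and 40.9 to 79.6 CPM in RalA cKO (-0.92 ± 0.24, adjusted p = 0.0665). The summed precursor share was 0.428% to 0.579% of counts in control, highest in control 3, and 0.335% to 0.412% in RalA cKO. Fewer cells of a stage and less RNA per cell cannot be told apart in such bulk samples. No called gene was among 25 tested transcription factors of the lineage, where Olig1 differed by 0.35 ± 0.12 (adjusted p = 0.119) and Sox10 by 0.13 ± 0.13 (adjusted p = 0.572).

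The Ral pathway itself held no call. None of 17 tested Ral GTPases, regulators and effectors and none of 9 exocyst subunits passed, with medians of -0.14 and -0.00. The Ral median was 0.01 with the Y-linked covariate and 0.11 in the libraries with Y-linked reads and without Xist. Ralgds, an exchange factor that loads Ral with GTP, was the most abundant of its list per length, at 400 TPM in control and 435 TPM in RalA cKO (0.30 ± 0.13, adjusted p = 0.188). Exoc7, the subunit that binds membrane lipids, was at 51.5 to 57.5 CPM in control and 61.7 to 69.8 CPM in RalA cKO, without overlap but also without passing (0.20 ± 0.10, adjusted p = 0.26). Exoc3 differed by 0.03 ± 0.09 (adjusted p = 0.853), a difference whose sign turned with library totals alone (-0.08). None of 28 SNAREs and exocytic Rab GTPases passed, with a median of 0.03 that became -0.09 with library totals alone.

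Genes of cholesterol synthesis and its control were lower as far as they were called. Of 24 tested genes 6 were lower and none higher, with a median of -0.17 and 21 of 24 below 0. Hmgcs1, a synthase of the early pathway, was at 1787, 2582, 1971 and 2709 CPM in control and at 1364, 1658, 1332 and 1335 CPM in RalA cKO. The groups did not overlap, and RalA cKO 2 was the highest of its group. Hmgcs1 fell by 0.67 ± 0.15 (adjusted p = 0.034), Lss, lanosterol synthase, by 0.66 ± 0.13 (adjusted p = 0.0223) and Insig1, a sterol-regulated inhibitor of the pathway, by 0.58 ± 0.12 (adjusted p = 0.023). Sc5d, a late desaturase, and Stard4, a sterol transfer protein, also fell (-0.59 ± 0.13 and -0.78 ± 0.15). Calls were lost without RalA cKO 4, control 2 or control 4 for Lss and Stard4 (adjusted p up to 0.094). Hmgcs1 was also lost without RalA cKO 2 or 3, and Insig1 without RalA cKO 2 or control 3 (adjusted p up to 0.121). Leaving out 1 library gave 1 to 7 lower calls, and the covariate gave none with a median of -0.16. Their summed share of counts was 1.33% to 1.55% in control and 1.02% to 1.25% in RalA cKO, without overlap. Among the other lists of the 31, the shares of precursor, newly formed oligodendrocyte, fatty acid, semaphorin, interferon and neuron lists were also lower without overlap. The p53 share was higher without overlap, at 0.0579% to 0.0651% in control and 0.0666% to 0.0742% in RalA cKO. All such shares are of library totals, without TMM scaling.

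Promoters of these genes were searched for the sterol response letters TCACNCCAC on both strands, in 250 bases before to 50 after the start, in sequence credited to RefSeq (GRCm38.p6). The letters were found in 1 of 17 cholesterol genes with a promoter in the table, against 1.36% of 9956 tested genes, 1.16% of 86 genes called lower and 4.10% of 122 genes called higher. That gene was Hmgcs1, whose 250 bases before the start (chr13:119690101-119690350, plus strand) are shown with the match in capitals, 137 bases before the start.
Hmgcs1: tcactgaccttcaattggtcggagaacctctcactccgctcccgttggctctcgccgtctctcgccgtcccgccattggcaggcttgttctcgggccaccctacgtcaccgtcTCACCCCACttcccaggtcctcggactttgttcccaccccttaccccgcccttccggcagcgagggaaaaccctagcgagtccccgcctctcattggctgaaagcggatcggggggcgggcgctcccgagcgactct

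Fatty acid and sphingolipid genes gave few calls. Of 25 tested fatty acid genes 2 were lower and 1 higher, with a median of -0.30, and their summed share of counts was 1.497% to 1.66% in control and 1.14% to 1.32% in RalA cKO. Acsl3, an acyl-CoA synthetase, was at 417 to 610 CPM in control and 241 to 368 CPM in RalA cKO (-0.77 ± 0.15, adjusted p = 0.0223). Scd1, a desaturase that makes oleate, was at 123 to 157 CPM in control and 67.9 to 110 CPM in RalA cKO (-0.69 ± 0.16, adjusted p = 0.042). The calls of both were lost without RalA cKO 4, control 2 or control 4, and that of Scd1 also without RalA cKO 3 or control 3 (adjusted p up to 0.0912 for Acsl3 and 0.144 for Scd1). The riser Scd3, a paralogue at 0.458 to 0.594 CPM in control, shares sequence with the Scd family, so its value is uncertain (2.10 ± 0.43, adjusted p = 0.0268). Among 23 sphingolipid genes only Sgms2, a sphingomyelin synthase, passed, at 27.4 to 51.5 CPM in control and 17.7 to 20.8 CPM in RalA cKO (-0.97 ± 0.18, adjusted p = 0.0172, and 0.0525 without RalA cKO 2).

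Lysosomal genes were higher where they were called, with 4 of 30 higher, none lower and a median of 0.22. Ctsf, cathepsin F, was at 57.8, 45.4, 51.8 and 59.5 CPM in control and at 85.0, 85.8, 83.3 and 108 CPM in RalA cKO (0.76 ± 0.12, adjusted p = 0.00913) and was called in all leave-one-out fits. Ctsa, protective protein cathepsin A, was at 198 to 237 CPM in control and 314 to 421 CPM in RalA cKO (0.64 ± 0.12, adjusted p = 0.0179). Cd63, a tetraspanin of late endosomes, rose by 0.99 ± 0.18 (adjusted p = 0.016) and Hexa, a subunit of beta-hexosaminidase, by 0.64 ± 0.12 (adjusted p = 0.0223). Without control 2 these 3 lost their call, as did Ctsa and Hexa without RalA cKO 4, Hexa without RalA cKO 2 and Cd63 without control 3 (adjusted p = 0.052 to 0.0925). Leaving out 1 library gave 1 to 6 higher calls, and the covariate gave none with a median of 0.23.

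The E-box letters CACGTG, contained in the element that transcription factors of the MiT/TFE family bind, were found on either strand in 9 of 23 lysosomal promoters (39.1%). Of all tested genes 11.8% held them, and of 122 genes called higher 20.5% did. Among the called lysosomal genes Ctsa, in 1 of its 2 annotated promoters, held the letters 12 bases and Ctsf 79 bases before the start. Both promoters are shown with the match in capitals, Ctsa from chr2:164833523-164833772 and Ctsf from chr19:4854915-4855164, plus strand, RefSeq GRCm38.p6.
Ctsa: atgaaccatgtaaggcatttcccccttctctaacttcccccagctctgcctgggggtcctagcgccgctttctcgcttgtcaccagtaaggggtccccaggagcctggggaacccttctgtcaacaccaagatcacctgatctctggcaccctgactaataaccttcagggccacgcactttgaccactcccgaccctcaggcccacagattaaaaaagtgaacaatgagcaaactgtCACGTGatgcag
Ctsf: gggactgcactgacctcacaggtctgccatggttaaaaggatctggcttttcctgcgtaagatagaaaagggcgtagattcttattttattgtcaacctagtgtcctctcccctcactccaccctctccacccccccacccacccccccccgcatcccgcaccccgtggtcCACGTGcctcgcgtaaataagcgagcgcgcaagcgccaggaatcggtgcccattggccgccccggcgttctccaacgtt

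Mitochondrially encoded mRNAs lay above 0 in 13 of 13 genes, and 5 passed as higher, with a median of 0.64. mt-Nd3, a subunit of complex I, was at 129, 164, 108 and 120 CPM in control and at 202, 328, 267 and 387 CPM in RalA cKO (1.18 ± 0.19, adjusted p = 0.00841), in all 8 leave-one-out fits. mt-Co3, of complex IV, rose by 0.93 ± 0.17 (adjusted p = 0.0143, and 0.0503 without control 4). mt-Nd1, mt-Nd2 and mt-Nd4 also passed, but each lost its call without RalA cKO 2, 3 or 4, control 3 or control 4 (adjusted p up to 0.161). As a group these genes held 1.45% to 2.15% of counts in control, highest in control 2, and 2.05% to 2.64% in RalA cKO, lowest in RalA cKO 1, so the groups overlapped. None of 28 nuclear genes of the respiratory chain and none of 22 glycolysis and lactate genes passed (medians of 0.18 and 0.11).

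**Figure D5:**
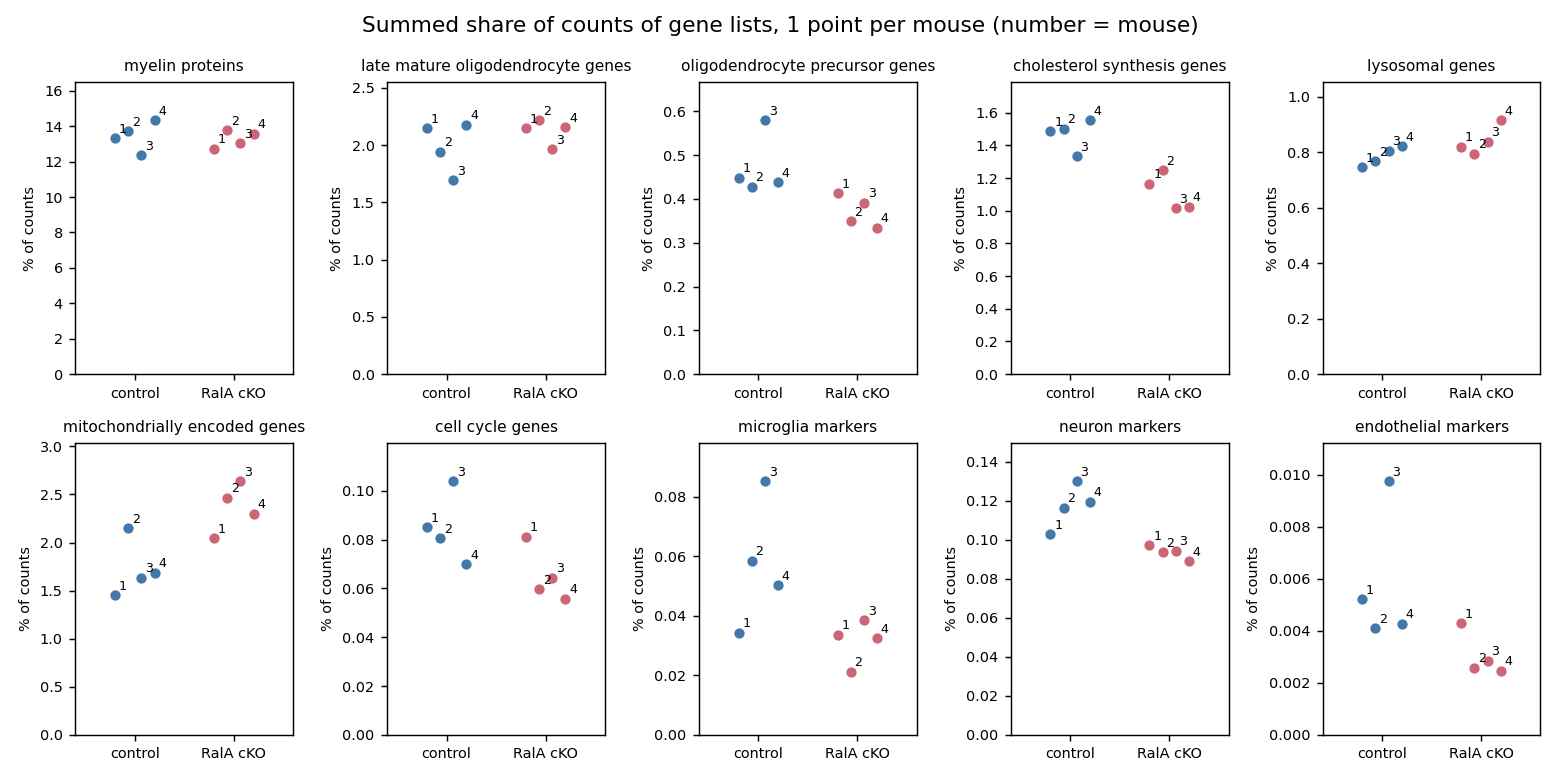
Summed share of counts (%) of 10 gene lists in each mouse, with control in blue and RalA cKO in red and the mouse number beside each point. Cholesterol, precursor and neuron lists do not overlap between groups, and mitochondrially encoded genes overlap through control 2 and RalA cKO 1. Control 3 is the highest library for precursor, cell cycle, microglia, neuron and endothelial lists.

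Stress genes were mostly without calls. A single call in a list, here or below, is given as a result for that gene and not for its list, since 1.31% of all tested genes were called higher and 0.882% lower. None of 18 amino acid and ATF4 genes passed. Xbp1, a transcription factor of the unfolded protein response, was the only one of 22 genes of that list to pass, at 30.6 to 44.1 CPM in control and 49.98 to 71.1 CPM in RalA cKO (0.72 ± 0.14, adjusted p = 0.0223), lost without RalA cKO 2 or 4 or control 2 or 3 (adjusted p up to 0.094). Phlda3, a p53 target that restrains AKT, was 1 of 15 p53 targets to pass, at 168 to 279 CPM in control and 315 to 434 CPM in RalA cKO (0.78 ± 0.16, adjusted p = 0.0268), lost without the same 4 or control 4 (adjusted p up to 0.101). Medians of these 3 lists were 0.02, 0.00 and -0.07, and the ATF4 and unfolded protein medians turned negative with library totals alone. The summed share of the p53 list was higher in RalA cKO, unlike its median.

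Calls among proliferation, early response and interferon genes were few and all lower. Of 27 cell cycle genes 3 were lower (Tpx2, a spindle factor, Top2a, a topoisomerase, and Ccnb1, cyclin B1), with a median of -0.71 and 24 below 0. The summed share of this list overlapped between groups, at 0.0700% to 0.104% of counts in control and 0.0558% to 0.0812% in RalA cKO. Top2a was at 39.5, 43.5, 53.4 and 33.8 CPM in control and at 28.8, 15.9, 26.4 and 19.8 CPM in RalA cKO (-0.91 ± 0.19, adjusted p = 0.0271). Each of the 3 lost its call without RalA cKO 2 or 4 or control 2 or 3 (adjusted p up to 0.164), and leaving out 1 library gave 0 to 9 lower calls for the list. Of 23 immediate early genes (median -0.42, but -0.0813 without control 3 and 0.11 with the Y-linked covariate) only Nr4a1, an orphan nuclear receptor, passed, at 22.6 to 31.4 CPM in control and 12.4 to 18.4 CPM in RalA cKO (-0.83 ± 0.17, adjusted p = 0.0241). Of 13 interferon response genes (median -0.46, and -0.15 without control 2) only H2-D1, an MHC class I heavy chain, passed, at 29.9 to 58.0 CPM in control and 21.04 to 28.1 CPM in RalA cKO (-0.82 ± 0.20, adjusted p = 0.0461). Both lost their call without RalA cKO 2 or 4 or control 2 or 3, and H2-D1 also without RalA cKO 3 or control 4 (adjusted p up to 0.153).

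Guidance genes had calls in 1 direction and matrix genes in both. Of 27 semaphorins, plexins and partners 3 were higher (Sema7a, Sema3b and Sema4f) and none lower, although the median was -0.37 and 20 lay below 0. Their summed share of counts was 0.659% to 0.693% in control and lower, at 0.570% to 0.587%, in RalA cKO. Sema3b, a secreted semaphorin, was at 1.39, 0.640, 0.949 and 1.65 CPM in control and at 4.67, 4.80, 5.02 and 17.8 CPM in RalA cKO (2.81 ± 0.49, adjusted p = 0.0146), lost without control 2 or 3 (adjusted p up to 0.072). Sema4f, a transmembrane semaphorin, rose by 0.59 ± 0.13 (adjusted p = 0.0314), lost without RalA cKO 2 or 4 or control 2, 3 or 4 (adjusted p up to 0.123). Of 27 matrix genes (median -0.32, and -0.13 without control 3) 2 were higher, Adamtsl4 and Cd44, and 2 lower, Nid1 and Mgp. Mgp, matrix Gla protein, an inhibitor of calcification, was at 27.7, 38.6, 13.03 and 25.4 CPM in control and at 10.5, 9.61, 3.97 and 4.51 CPM in RalA cKO (-1.88 ± 0.38, adjusted p = 0.036), lost without RalA cKO 2, 3 or 4 or control 2 or 4 (adjusted p up to 0.112).

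Markers of other cell types in the sort were at low levels. List medians were below 0 in the fit of 8 libraries, but without control 3 those of astrocyte (0.18), Schwann cell (0.0863) and erythroid markers (0.0109) were above 0, and in the libraries with Y-linked reads and without Xist (1 control) that of microglia was 0.10. Of 20 microglia markers 3 were lower, and all 20 lay below 0 with a median of -0.80. Ly86, a partner of RP105 on myeloid cells, was at 6.99, 7.76, 11.95 and 8.80 CPM in control and at 2.97, 1.16, 2.12 and 3.15 CPM in RalA cKO (-1.91 ± 0.30, adjusted p = 0.00703, called in all leave-one-out fits). Siglech, a sialic acid-binding lectin of microglia, fell by 1.53 ± 0.30 (adjusted p = 0.023) and C1qb, a chain of complement C1q, by 0.63 ± 0.15 (adjusted p = 0.0492). The list held 0.0343% to 0.0852% of counts in control, highest in control 3 and lowest in control 1, and 0.0213% to 0.0384% in RalA cKO. Siglech lost its call without RalA cKO 2 or control 2 or 3 (adjusted p up to 0.0874), and C1qb kept it only without control 1. The count of lower calls in the list was 1 to 14 over the leave-one-out fits.

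Endothelial markers had 1 lower call of 11, Tek, the angiopoietin receptor (-2.42 ± 0.55, adjusted p = 0.0368, kept only without RalA cKO 1 or control 1), with a median of -0.98 and a summed share of 0.00409% to 0.00976% in control and 0.00247% to 0.00428% in RalA cKO. Without control 3 the endothelial median was -0.45. Neuron markers had no call of 16 and a median of -0.83 (-0.31 without control 3 and -0.30 with the Y-linked covariate), at 0.103% to 0.130% and 0.0889% to 0.0971% of counts. Pericyte and fibroblast markers had no call of 6 (median -0.78), Schwann cell markers none of 7 (median -0.39), ependymal markers none of 1 and erythroid markers none of 4 (median -0.18). Of 19 astrocyte markers Glul, glutamine synthetase, which oligodendrocytes also make, rose by 0.63 ± 0.12 (adjusted p = 0.0173, lost without RalA cKO 4 or control 2), and the list median was -0.08. Whether the shares of microglia, endothelial, neuron or pericyte markers take part in the changes of Nid1, Mgp, H2-D1 or the precursor genes was not tested.

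Called genes were spread over the genome. Chromosome 7 had the highest share among nuclear chromosomes, 34 of 1008 tested genes (3.37%). Over all tested genes 2.19% were called, which is the background for the windows in this and the next paragraph. Of 278 called nuclear genes 106 (38.1%) had another call within 1 Mb, close to the 35.0% of all 12911 tested nuclear genes. Within 1 Mb of the start of Plekhf1, 2 of 6 other tested genes were called, Pop4 and 1600014C10Rik, both lower. 1600014C10Rik was at 16.9 to 22.2 CPM in control and 7.51 to 9.96 CPM in RalA cKO (-1.22 ± 0.16, adjusted p = 0.00315), and it was the only further gene called with the Y-linked covariate. Within 5 Mb there were 3 of 38, the further one being Tshz3, lower as well (-1.30 ± 0.24, adjusted p = 0.015, called in 6 of 8 leave-one-out fits). Linked sequence variants, which may differ with an unstated strain, were not tested for these neighbours.

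Regions of the engineered loci were looked at in the same way. Around Rala none of 7 tested genes within 1 Mb and 2 of 34 within 5 Mb were called, Nid1 and Gng4, both lower. Gng4, a G protein gamma subunit, was at 64.7 to 120 CPM in control and 40.2 to 60.0 CPM in RalA cKO (-0.83 ± 0.18, adjusted p = 0.0308, called in 3 of 8 leave-one-out fits). Around Cnp 4 of 44 genes within 1 Mb were called, all higher (Jup, Naglu, Coasy and P3h4), and around Gt(ROSA)26Sor none of 27. Within 5 Mb of Cnp 7 of 168 were called (4.17%), 6 higher and 1, Top2a, lower. Within 5 Mb of Gt(ROSA)26Sor 1 of 63 was called (1.59%). Jup, junction plakoglobin, was at 36.9 to 46.3 CPM in control and 65.8 to 83.6 CPM in RalA cKO (0.85 ± 0.12, adjusted p = 0.00335), in all leave-one-out fits. The floxed allele with its linked sequence and loss of RalA cannot be told apart in this design.

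At the level of single transcripts 7 of 27071 were called (0.0259%), 1 higher (0.00369%) and 6 lower (0.0222%). In 5 cases the gene was called in the same direction: Pop4-201, Plekhf1-201, AI506816-205, Nid1-201 and, as the only riser, Hcn2-202. The other 2 were isoforms of genes that were not called. Josd2-202, of a deubiquitinase gene, had 308 to 626 estimated counts in control and 0 in every RalA cKO library, at least 130-fold lower on the same floor (adjusted p = 0.0222), while Josd2 as a gene differed by 0.20 ± 0.13 (adjusted p = 0.369). Epb41l2-214, of a membrane skeleton gene, had 249 to 696 estimated counts in control and under 1 in every RalA cKO library, at least 123-fold lower (adjusted p = 0.0275). As a gene Epb41l2 differed by -0.31 ± 0.11 (adjusted p = 0.113). Every 31-base word of both transcripts also occurs in other transcripts of the same gene.

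Such patterns of estimated counts were seen in more transcripts without passing the test. Estimated counts of isoforms that share sequence carry an error of assignment that is not given. Some of these transcripts, such as those of Kazn, R3hdm2 and Rapgef6, hold no 31-base word of their own. In all, 27 transcripts rounded to 0 in every RalA cKO library with at least 10 counts in every control library, and 15 showed the opposite. For 39 of these 42 the gene was not called. Gm10184 was among the other 3, at 9.04 to 49.1 CPM in control and 0 in every RalA cKO library, at least 139-fold lower (gene adjusted p = 0.0306). It was called in 2 of 8 leave-one-out fits, and 95.8% of its words occur in other genes. Eno1b, which shares most of its sequence with the enolase gene Eno1, was at 0, 1.14, 0.876 and 0 CPM in control and at 399, 222, 135 and 11.3 CPM in RalA cKO without passing (8.52 ± 1.51, adjusted p = 0.0506). The sum of Eno1 and Eno1b was 642 ± 81.8 (SD) CPM in control and 684 ± 84.9 in RalA cKO. Since 87.9% of the words of Eno1b-202 occur in other genes, the split between both genes is uncertain.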

How the data were processed

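RNA from sorted tdTomato+ spinal cord cells of 8 mice was compared, 4 per group. The authors deposited 1 table per library that lists, for each transcript, its effective length, estimated count and TPM. Per the submitters' processing notes Trimmomatic 0.36, kallisto 0.44 and GRCm38.p6 were used; the sources used here do not give the strand setting, so overlapping antisense genes cannot be told apart. Deposited TPM values served only to compare levels per length and to weight lengths, and deposited effective length (a score in bases) only for the length offsets.

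By their identifiers 121104 of 121843 transcripts were found in GENCODE vM21, and the 739 others held 0.219% to 0.267% of counts. Estimated counts were summed over genes and rounded. Of 35675 genes, 12924 passed the edgeR filter (minimum count 10, minimum total 15), were scaled by TMM and tested with robust quasi-likelihood F tests (edgeR 4.0.16, R 4.3.3) with Benjamini-Hochberg adjustment at 0.05. Standard errors were taken as |log2 fold change| over root F. The common biological coefficient of variation was 0.194. Intervals and floors (3 counts) cover counting error only. Replicates are separate mice per the labels, and none of the 12 pairs within a group was a duplicate (chi-square per degree of freedom 9.63 to 39.5).

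Mice with the same number were not treated as pairs. Simulated counts were drawn independently for each library, with changes planted in genes of 5 CPM or more and without any effect of sex. There 85% of 2-fold and 34% of 1.5-fold changes were recovered, and 7.75% of 129 calls were false. Lacking the uneven sex-linked reads of the real libraries, the simulation gives no false share for the real calls.

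Genes named were Rala and Ralb, 15 protein-coding calls in each direction by size (mean level 5 CPM or more), the 10 calls with the smallest p in each direction and up to 5 called members of each of 31 lists, or 2 members by TPM where a list had none; genes named beyond this, such as Mbp, Pdgfra, Gng11, Jup, Gng4, Tshz3, Sc5d, Ptgds and Eno1b, were chosen after their values were seen. Some members of the lists are not reported here by name. Members and lists were chosen with earlier results of these data known. Alternatives were other scalings and filters, DESeq2 1.42.0, limma-voom (limma 3.58.1) with and without quality weights, all 12 libraries, mouse number as a block, length offsets, nuclear protein-coding genes, a Y-linked covariate and leaving out single libraries. Both fits on libraries chosen by sex-linked reads were added after seeing the data.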

Additional observations from a re-analysis of the deposited data

Results flagged for a closer look

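Of 268 groups of 4 values tested (103 named genes and the summed list shares), 24 held 1 library far from the other 3, where chance alone gives about 5% of groups. RalA cKO 1 was the outlying library in 7 of these, with the lowest Rala (33.3 CPM), Rab11a (77.7 CPM) and mt-Nd1 (1193 CPM) and the highest Inpp5d (5.66 CPM), Eya2 (13.035 CPM), Nr4a1 (18.4 CPM) and H2-D1 (28.1 CPM) of its group. RalA cKO 4 was highest for Exoc7 (69.8 CPM), Sgms2 (20.8 CPM), Ctsf (108 CPM), Ctsa (421 CPM) and Sema3b (17.8 CPM). RalA cKO 2 was highest for Hmgcs1 (1659 CPM) and for the erythroid share (0.0107%), and RalA cKO 3 was lowest for Gapdh (1999.9 CPM).

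Control 3 was highest for the summed shares of precursor genes (0.579%), astrocyte markers (0.176%), pericyte and fibroblast markers (0.00405%) and Schwann cell markers (0.0115%), and lowest for Lss (656 CPM). Control 1 was highest for Sox10 (1737 CPM) and Vmn1r43 (0.198 CPM). Control 2 was lowest for Exoc7 (51.5 CPM) and Vtn (2.96 CPM). Several of these values belong to genes whose calls were lost in some leave-one-out fits, among them Inpp5d, Eya2, Nr4a1, H2-D1, Hmgcs1, Sema3b and Lss.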

How the results depend on the processing

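Against 283 gene calls, there were 874 with no count filter, 1053 with the DESeq2 test, 1671 with limma-voom and quality weights, 13 with the Y-linked covariate, 5 in the libraries with Y-linked reads and without Xist, and 29 without both libraries with mixed sex-linked reads. Leaving out 1 library gave 58 to 1053 genes. Against 7 transcript calls, there were 41 with no count filter, 759 with the DESeq2 test, 37 with all 12 libraries, 2 with the Y-linked covariate, 0 in both fits on libraries chosen by sex-linked reads, and 2 to 13 with 1 library left out. The cause was not tested.

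The labels do not pair mice by number. Deviations of same-numbered mice correlated at 0.11, 0.08, 0.16 and 0.18, all above 0, and those of mice with different numbers at -0.275 to 0.233. Not every mouse correlated best with its own number. Whether mice with the same number shared handling was not tested. With the replicate block 1233 genes and 0 transcripts were called, and Foxj1 was at 0.00244.

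Rala was at -0.58 (adjusted p = 0.0465) with length offsets and at 0.14 in the libraries with Y-linked reads and without Xist. In those libraries uncalled genes also turned: Sox10 -0.17, Rab11b -0.0178, Atp5b -0.0852, Gapdh -0.0592, Aldoa -0.0833, Psat1 -0.00111, Phgdh -0.32, Elavl3 0.0707 and Hbb-bs 0.0290. With library totals Exoc3 was -0.0809, Atp5b -0.0119 and Phgdh -0.0105. With length offsets Rab11a was -0.14 and Foxj1 0.00952. With the covariate Phgdh was -0.00410, Elavl3 0.00255 and Hbb-bs 0.0129. Foxj1 was 0.00468 with limma-voom and 0.17 without the mixed libraries, and Hbb-bs was 0.000382 with quality weights. Leaving out 1 library turned Phgdh (-0.0334 to 0.241), Foxj1 (-0.153 to 0.222) and Hba-a1 (-0.0159 to 0.480) in some fits. Called genes chosen by the naming rule kept their direction in every setting. The 29 called genes under 5 CPM rest on the least depth.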
